A study of Mus musculus with 4 samples.

Results

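The ETS family of transcription factors was followed through 10 of its genes, Ets1, Ets2, Fli1, Elf1, Elf2, Elf4, Elk3, Elk4, Etv6 and Gabpa, in mouse Th17 cells with and without miR-155. The 10 genes were taken by name, without a cut on their measured values but with earlier results of these data known. They are those of the family commonly described in T cells. They were read by 19 probes, of 36724 probes on the array that carried a gene or transcript name. A probe was tested where both arrays of a genotype, or of each, called it well above background. This held for 18 of the 19 probes, among 26079 such probes of 19762 genes.

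Gene expression was measured on 4 one-colour Agilent arrays, 2 of wild-type cells and, for comparison, 2 of cells from which miR-155 was knocked out. Per the labels, both genotypes were T cells grown in RPMI medium with fetal bovine serum, antibodies to CD3e and CD28, TGFb and IL-6, a mixture that drives naive T cells towards the IL-17-producing Th17 fate. The cells positive for CD4 and for RFP, a red fluorescent protein that reports IL-17F, were then taken by flow cytometry, so both groups hold only cells that had switched the reporter on. The design text calls the arrays biological replicates, but the labels name no mouse, culture or date behind any of them. The p-values therefore describe the spread between these 4 samples, and some of that spread may be technical. Neither the strain, age or sex of the mice nor the way the knockout allele was made is given in the labels.

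ETS factors share a winged helix DNA-binding domain that reads a GGAA core, and the flanking bases, partner proteins and phosphorylation set which sites each one uses. In T cells, Ets1, Fli1, Elf1 and Gabpa are abundant members known to act on receptor and cytokine genes, among them the genes of the IL-7 receptor and IL-2. T helper cells without Ets1 are known for poor IL-2 and strong IL-17 production, and Ets1 is on the list of reported miR-155 targets. A microRNA is known to lower its targets by pairing its seed with their transcripts.

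The deleted microRNA is shown first, since its absence is the only stated difference between the groups. Its mature sequence, from RefSeq on GRCm38.p6 at chr16:84714143-84714165 on the plus strand, is printed with the seed, bases 2 to 8, in capitals.
mmu-miR-155-5p: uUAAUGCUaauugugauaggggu
None of the 19 probes, each 60 bases long, held the 7-base match to this seed, so no probe lay on such a site. The probes cover only a small part of each transcript, and the rest of the transcripts was not searched here. No probe carried the name of miR-155 or of its host gene, so the deletion itself was not read on these arrays.

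The 2 genes with a match to a long ETS motif before their own start are shown next. RefSeq's promoter table for GRCm38.p6 held 13 windows of 250 bases before a start for 8 of the 10 genes, all but Ets1 and Fli1. The 7-base motif CCGGAAG, searched on both strands, contains the GGAA core. It was found in 2 of these 13 windows, 1 of Elk4 and 1 of Gabpa, against 6.91% of 32851 windows in the whole table. The bare core GGAA was in 12 of the 13 windows and in 93.4% of all windows. The Elk4 stretch lies at chr1:132007541-132007569 and the Gabpa stretch at chr16:84834977-84835123, both on the plus strand, with CCGGAAG or its reverse complement in capitals.
Elk4: cggcccctcccCCGGAAGtgacgctcgcg
Gabpa: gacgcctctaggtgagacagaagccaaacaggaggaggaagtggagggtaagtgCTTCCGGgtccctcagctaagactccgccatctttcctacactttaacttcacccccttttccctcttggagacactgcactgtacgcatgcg
The Gabpa stretch of 147 bases is the whole interval between the start of Gabpa, at 84835124, and the start of its divergent neighbour Atp5j, at 84834976. A match is a description of the letters, and no binding was measured.

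None of the 10 genes passed the limma test at an adjusted p of 0.05, at which 0 of 19762 genes (0.0%) passed. The smallest adjusted p of any gene was 0.301. At an unadjusted limma p under 0.05, 1 of the 10 genes, Etv6, was lower in the knockout and 0 were higher, where 4.06% of all genes were lower, 7.04% were higher and 11.1% lay on either side. The knockout arrays lay beyond the wild-type arrays for 5 of the 10 genes, above them for Ets1 and below them for Fli1, Elf2, Etv6 and Gabpa. Over all genes the same was true of 47.7%, with 25.2% above and 22.6% below, so the share of the ETS genes is near the background. The median difference of the 10 genes, knockout minus wild type on the log2 scale, was -0.02, within a range of -0.73 to 0.18. The median of all genes was 0.01, with quartiles at -0.16 and 0.22. Probe by probe, 3 of the 18 tested probes passed an unadjusted limma p of 0.05, Ets1 probe 2 above wild type and both Etv6 probes below it, against 11.0% of all tested probes (6.94% above and 4.05% below). The genotypes did not overlap at 9 of the 18, 2 above and 7 below, against 47.2% of all tested probes (25.0% above and 22.2% below). Etv6 probe 2 is in both counts and passed the filter through wild type alone, so its place below wild type follows from the filter and supports nothing. With each array shifted by its median in place of its 75th percentile, the median of all tested probes moved to -0.15, and Ets1 probe 1, Elf1 probe 2, Elk3 probe 1 and Elk4 probe 1 turned from above to below 0. An exact two-sided permutation test of 2 against 2 arrays cannot give a p below 0.333, and none is quoted for a single gene.

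**Figure D1:**
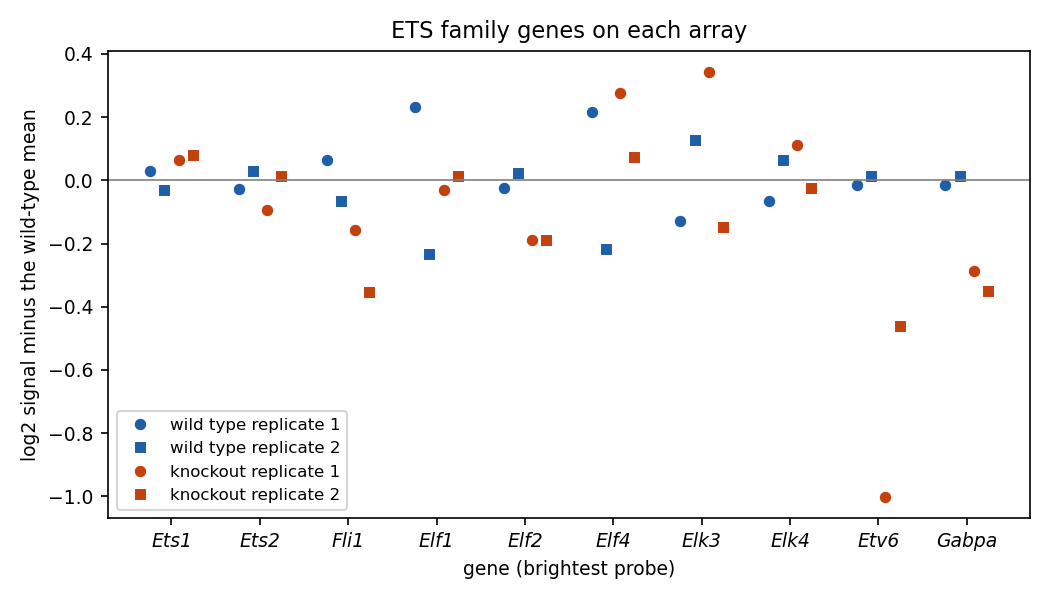
Log2 signal of each ETS gene on each of the 4 arrays, by the brightest probe of the gene, minus the wild-type mean of that probe; blue is wild type, orange is knockout, circles are replicate 1 and squares replicate 2. Etv6 shows the lowest knockout values, most of all on knockout array 1, while the 4 points of Ets1 lie close together.

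Levels are given as the log2 processed signal minus the 75th percentile of all non-control probes on the same array, so that a level of 0 is a signal at that percentile. Where a gene has several probes they are numbered from the brightest, and the brightest stands for the gene in the counts. In 7 of the 7 genes with several probes, the brightest was also the one farthest towards the 3′ end. Positions are those of the array design on mm9. No annotation of that build was used here, so the exons are not named. Each array file also holds a fitted surface, a ratio near 1 that describes how bright each place on the array is. Knockout array 1 was the one array on which nearly all bright signals had not been divided by this surface, and a difference after that division is given where it moved a value. The arrays were hybridised with RNA of bulk samples, in which fewer cells of a type and less RNA per cell cannot be told apart.

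Ets1, the founding member of the family and a factor known to restrain Th17 cells, lay above wild type in the knockout at both of its probes. The differences were unlike in size, and neither passed an adjusted p of 0.05. Probe 1, at chr9:32564860-32564919 on the plus strand, was at 4.86 and 4.80 on the wild-type arrays and at 4.89 and 4.91 on the knockout arrays. The knockout arrays lay just above the wild-type arrays, by a log2 difference of 0.07 ± 0.12 (SE, n = 2 and 2, limma adjusted p = 0.818), with a 95% interval of -0.25 to 0.39, and with arrays shifted by their medians it was -0.089. Probe 2, whose start lies 3034 bases upstream at chr9:32561826-32561885, was at 4.17 and 3.97 in wild type and at 4.44 and 4.98 in the knockout. Here too both knockout arrays were higher, and knockout array 2 stood well above the other 3 arrays. The difference at probe 2 was 0.64 ± 0.23, or 1.56-fold (limma adjusted p = 0.455), and its 95% interval ran from 0.0051 to 1.27. It was past an unadjusted p of 0.05 with all 4 arrays and, at 0.91, without knockout array 1. It was not past it without wild-type array 1 (0.74), wild-type array 2 (0.54) or knockout array 2 (0.37). Nor was it past it with the division by the surface (0.59), quantile scaling (0.65), median shifts (0.48), no filter on dim probes or the replicate number as a block. It was past it with normexp (0.59), with only probes above background on all 4 arrays and with an intensity trend. The genotype difference at probe 1 was thus 0.57 below that at probe 2, a gap that was not tested.

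Fli1, a close relative of Ets1 that also acts in T cells and in blood vessel cells, lies beside Ets1, with probe starts 335 kb apart. Its single probe, at chr9:32229857-32229916 on the minus strand, was at 2.27 and 2.13 in wild type and at 2.04 and 1.85 in the knockout. Both knockout arrays were below both wild-type arrays. The difference was -0.25 ± 0.14 (limma adjusted p = 0.538), on the other side of 0 from both Ets1 probes. With knockout array 1 divided by its surface, the difference was -0.36 ± 0.12 and past an unadjusted limma p of 0.05. It was at -0.16 without knockout array 2 and at -0.41 with arrays shifted by their medians.

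Ets2, which shares the DNA-binding and pointed domains of Ets1, differed little between arrays. Its probe at chr16:95942227-95942286 was at 0.81 and 0.86 in wild type and at 0.74 and 0.85 in the knockout. The genotypes overlapped, and the difference was -0.04 ± 0.12 (limma adjusted p = 0.910), with a 95% interval of -0.37 to 0.29.

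Elf1, Elf2 and Elf4 form the Elf branch, whose members are known in lymphocytes for activating receptor genes and, for Elf4, for holding T cells at rest. Elf1 probe 1, starting at chr14:79981995, was at 3.17 and 2.71 in wild type and at 2.91 and 2.95 in the knockout. Elf1 probe 2, starting at 79973368, was at 0.35 and -0.05 in wild type and at 0.38 and -0.01 in the knockout. At both probes the genotypes overlapped, and the differences were -0.01 ± 0.20 (limma adjusted p = 0.990) and 0.04 ± 0.23 (adjusted p = 0.960). The 2 wild-type arrays differed from each other by 0.46 at probe 1, more than the genotypes did.

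Elf2 was read by 1 probe, at chr3:51059616-51059675 on the minus strand. It was at 1.89 and 1.93 in wild type and at 1.72 on each knockout array. Replicates were close and the knockout was lower, with a log2 difference of -0.19 ± 0.11 (limma adjusted p = 0.564). It was at -0.075 with normexp background correction, at -0.13 with knockout array 1 divided by its surface and at -0.35 with arrays shifted by their medians. This spot lies in row 1 of the array near its right edge, where the fitted surface was between 0.82 and 0.91 on the 4 arrays.

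For Elf4, probe 1, starting at chrX:45766658, was at -0.96 and -1.39 in wild type and at -0.90 and -1.10 in the knockout. The genotypes overlapped, with a difference of 0.18 ± 0.20 (limma adjusted p = 0.742), the highest of the 10 genes and still below its own SE. Elf4 probe 2 was not well above background on any of the 4 arrays and was not tested.

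Elk3 and Elk4 are ternary complex factors, which bind serum response elements together with the factor Srf and are switched on by MAP kinases, and Elk3 without that signal is known as a repressor. The 3 probes of Elk3 did not point one way. Elk3 probe 1, starting at chr10:92710178, was at 3.58 and 3.84 in wild type and at 4.05 and 3.56 in the knockout. Probe 2 of Elk3 was at 3.01 and 3.14 in wild type and at 3.20 and 2.85 in the knockout. On probe 3 the levels were -0.63 and -0.49 in wild type and -0.47 and -0.85 in the knockout. On all 3 probes knockout array 1 was the highest array and knockout array 2 the lowest. The genotypes therefore overlapped, and the differences were 0.10 ± 0.22, -0.06 ± 0.17 and -0.10 ± 0.18 (limma adjusted p from 0.831 to 0.913).

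The 3 probes of Elk4 spread over 7247 bases of chromosome 1. Probe 1, starting at chr1:133922145, was at 0.12 and 0.25 in wild type and at 0.30 and 0.16 in the knockout, with overlap. Elk4 probe 2, starting at 133920349, was at -0.75 on both wild-type arrays and at -0.89 and -0.93 on the knockout arrays. Probe 3 of Elk4, starting at 133914898, was at -2.08 and -2.09 in wild type and at -2.19 and -2.63 in the knockout. At probes 2 and 3 both knockout arrays were below both wild-type arrays. The differences were 0.04 ± 0.13, -0.16 ± 0.11 and -0.32 ± 0.19 (limma adjusted p from 0.559 to 0.908), so the sign differed between probes with the signals as deposited. Probe 1 was also below 0 with arrays shifted by their medians, with knockout array 1 divided by its surface, and without either wild-type array 1 or knockout array 1. With the division, probe 3 was at -0.45 ± 0.13, past an unadjusted limma p of 0.05. It was at -0.54 without knockout array 1 and at -0.10 without knockout array 2.

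**Figure D2:**
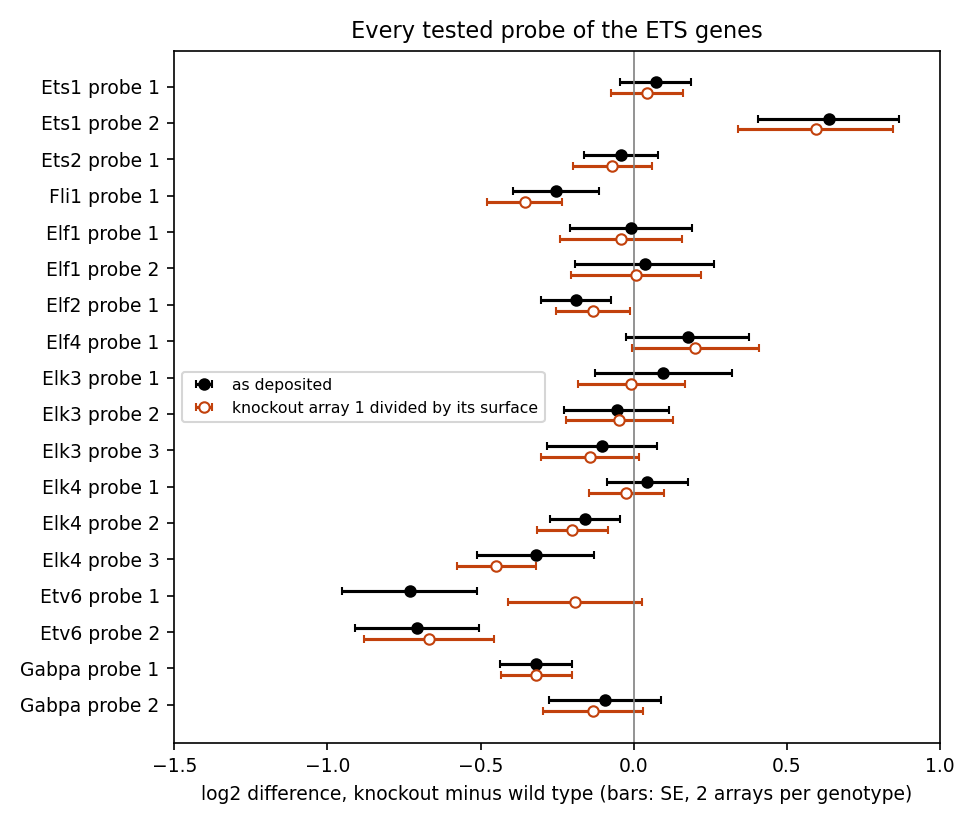
Log2 difference, knockout minus wild type, at each of the 18 tested probes, with SE bars over 2 arrays per genotype; filled points use the signals as deposited and open points use knockout array 1 divided by its fitted surface. The division moves Etv6 probe 1 from -0.73 to -0.19, while Gabpa probe 1 stays at -0.32 and Ets1 probe 2 goes from 0.64 to 0.59.

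Etv6, a repressor of the family that forms polymers through its pointed domain and is known for its part in blood stem cells and leukaemia fusions, had the lowest difference of the 10 genes with the signals as deposited. Probe 1, at chr6:134216664-134216723, was at 2.74 and 2.77 in wild type and at 1.76 and 2.30 in the knockout. The wild-type arrays were close together and both knockout arrays were lower, with 0.54 between them. The difference was -0.73 ± 0.22, or 1.66-fold lower in the knockout (limma adjusted p = 0.415).

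The low value of Etv6 on knockout array 1 lay where that array was dim. The surface at the Etv6 spot was 0.46 on knockout array 1 and between 0.91 and 0.95 on the other 3 arrays. Only 2.40% of tested probes had a lower surface on knockout array 1. The level of Etv6 on knockout array 1 was 0.85 below the mean of the other 3 arrays. Of the 717 tested probes with a surface below 0.5 on that array, 94.1% were likewise below the other 3 arrays, by a median of 1.85. Once divided by the surface, Etv6 probe 1 on knockout array 1 was at 2.84, above both wild-type arrays. The genotypes then overlapped and the difference was -0.19 ± 0.22, no longer past an unadjusted limma p of 0.05, with Fli1 at -0.36 and Gabpa at -0.32 below it. Without knockout array 1, the remaining knockout array alone gave -0.46 ± 0.14, past that threshold if the lone array is assumed to vary like the others. Leaving out either wild-type array barely moved the difference, to -0.75 or -0.72, and it was then no longer past the threshold.

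**Figure D3:**
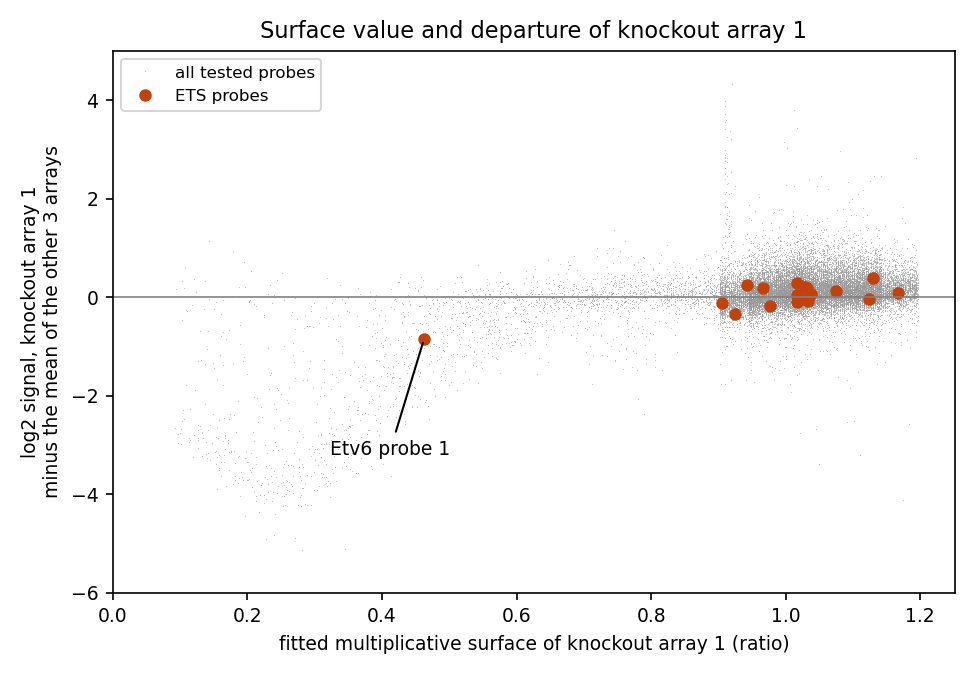
Fitted surface of knockout array 1 (x axis, ratio) against the log2 signal of that array minus the mean of the other 3 arrays (y axis) for the 26079 tested probes in grey and the 18 ETS probes in orange. Etv6 probe 1, at a surface of 0.46 and a departure of -0.85, is the only ETS probe in the dim tail, and the other 17 lie at a surface of 0.91 or above.

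Etv6 probe 2, at chr6:134197612-134197671, was named for another transcript of the gene and lay near the lower limit of detection. It was at -5.06 and -4.62 in wild type and at -5.45 and -5.65 in the knockout. Both wild-type arrays and 0 of the 2 knockout arrays called it well above background. With each knockout level set to the lowest signal well above background on its array, where that was higher, the wild-type mean was 1.19-fold higher. That value follows from the filter, which this probe passed through wild type alone, and it supports no difference. The fit gave an adjusted p of 0.404, and the fitted difference turned to 0.16 when the background was corrected by limma's normexp method. Its surface on knockout array 1 was 0.93.

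Gabpa, the DNA-binding subunit of the GA-binding protein that drives many nuclear genes for mitochondrial proteins, was lower in the knockout at a probe with close replicates. Probe 1, at chr16:84863822-84863881, was at 0.82 and 0.85 in wild type and at 0.55 and 0.48 in the knockout. The genotypes did not overlap, and 0.03 and 0.06 separated the arrays within each. The difference was -0.32 ± 0.12, or 1.25-fold lower in the knockout (limma adjusted p = 0.455). It was not past an unadjusted limma p of 0.05 with the signals as deposited, and was past it with knockout array 1 divided by its surface, with normexp and with arrays shifted by their medians, where it was at -0.48. It lay between -0.35 and -0.29 when any 1 array was left out, and its surface on knockout array 1 was 0.98. Probe 2, starting at 84860691, was at 0.41 and 0.32 in wild type and at 0.47 and 0.07 in the knockout. There the genotypes overlapped, with knockout array 1 the highest of the 4, and the difference was -0.09 ± 0.18 (limma adjusted p = 0.850). The probes of Gabpa thus agreed in sign and not in size.

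Gabpb1, the partner subunit without a DNA-binding domain of its own, was lower in the knockout with no overlap between genotypes, at -0.23 ± 0.12 by its brightest probe (limma adjusted p = 0.530), and its 3 probes ran from -0.23 to -0.02. Its relative Gabpb2 was at 0.16 ± 0.18 (limma adjusted p = 0.732). Il7r, the IL-7 receptor chain and a reported Gabpa target, was higher by 0.49 ± 0.11 (limma adjusted p = 0.359). With knockout array 1 divided by its surface, Il7r was at 0.35 and Gabpb1 at -0.33. Tfb1m, a mitochondrial transcription factor gene and another reported target, was at -0.25 ± 0.12 (limma adjusted p = 0.495). Tfb2m and Tfam, also mitochondrial transcription genes among the reported ETS targets, were at -0.10 ± 0.15 and -0.12 ± 0.20. Il7r thus lay above 0, and Tfb1m, Tfb2m and Tfam lay below it.

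Gabpa lies on chromosome 16 near the deleted locus, and its neighbours are given for that reason. Mrpl39, a mitochondrial ribosomal protein gene and the next gene to the host of miR-155 in RefSeq, was at 2.66 and 2.73 in wild type and at 1.42 and 1.65 in the knockout. Its difference was -1.16 ± 0.14 (limma adjusted p = 0.301), and -0.57 at its other probe. From the start of the Mrpl39 probe, that of Gabpa was 145 kb away, and Jam2 and Atp5j, a junction protein and an ATP synthase subunit, lay between them at 106 kb and 110 kb. By their brightest probes Jam2 was at 0.11 ± 0.16 and Atp5j at -0.05 ± 0.15 (limma adjusted p = 0.796 and adjusted p = 0.919), while the other probe of Jam2 was at -1.29 and that of Atp5j at -0.29. On the far side of Gabpa, App, the amyloid precursor, lay at 236 kb and was lower, at -0.51 ± 0.18 (limma adjusted p = 0.450). Adamts1, an extracellular protease gene at 1076.5 kb, was at 0.30 ± 0.24 (limma adjusted p = 0.640), and Cyyr1 and Adamts5 did not pass the filter on background. By their brightest probes, Mrpl39 and App were the 2 lowest neighbours, and the 3 genes between them, Gabpa among them, had smaller differences. Jam2 and Adamts1 were dim, with wild-type means of -3.05 and -5.17, and Adamts1 was above background on 1 of the 2 knockout arrays. Whether Gabpa carries an effect of the deletion itself was not tested.

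**Figure D4:**
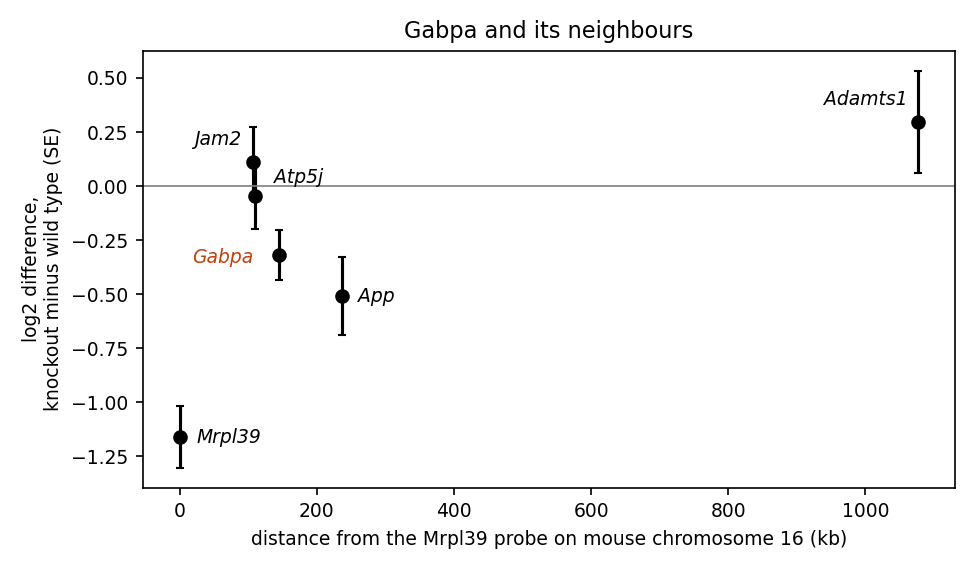
Log2 difference, knockout minus wild type, with SE, for Gabpa (label in orange) and its measured neighbours on chromosome 16, against the distance in kb from the start of the Mrpl39 probe, for 2 arrays per genotype. By the brightest probe of each gene, Mrpl39 at -1.16 and App at -0.51 are lowest, with Jam2 and Atp5j near 0 and Gabpa at -0.32 between them.

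Ets2 is on the same chromosome, with its probe 11.2 Mb from that of Mrpl39. Of its neighbours, 5 of 6 were tested, Psmg1, Brwd1, Hmgn1, Wrb and Dscr3, and lay between -0.27 and 0.34, with 0 past an unadjusted limma p of 0.05. The ETS gene Erg, which borders this group, did not pass the filter on background.

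Among 16 other ETS genes, 10 were tested, and their median difference was -0.01. Fev, known for its part in serotonin neurons, was the only one of the 10 past an unadjusted limma p of 0.05, against 11.1% of all genes. It was dim, at -3.09 and -2.53 in wild type and at -1.90 and -2.02 in the knockout, higher in the knockout by 0.86 ± 0.23 (limma adjusted p = 0.385). Etv5, a PEA3-group activator, was at 0.31 ± 0.12 (limma adjusted p = 0.456) and Spdef, an epithelial ETS gene, at 0.75 ± 0.31 (adjusted p = 0.479). Spdef was dimmer than Fev, at -4.14 and -3.94 in wild type and at -3.70 and -2.88 in the knockout. Etv1, in the same PEA3 group as Etv5, was at -0.44 ± 0.19 (limma adjusted p = 0.491), so these relatives lay on opposite sides of 0. With knockout array 1 divided by its surface, Etv1 was at -0.56 and Etv5 at 0.33. The genotypes did not overlap for 3 of the 10 genes above wild type, Fev, Etv5 and Spdef, and for 1 below it, Etv1. Over all genes that held for 25.2% above and 22.6% below. Elk1, the third ternary complex factor, was at 0.07 ± 0.15 by its brightest probe and at -0.52 by its other one. Spi1, the myeloid master factor, Spic, Erg, Etv2, Elf3 and Elf5 did not pass the filter on background.

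Of 20 partners and regulators of ETS factors, all were tested, with a median of -0.01. At an unadjusted limma p of 0.05, 1 gene was higher and 1 lower, against 7.04% of all genes higher and 4.06% lower. The genotypes did not overlap for 3 genes above wild type and 5 below it, Gabpb1 among the 5, against 25.2% and 22.6% of all genes. The pair of related acetyltransferases that ETS factors recruit split. Ep300 was at 1.22 and 1.33 in wild type and at 0.71 and 0.76 in the knockout, lower with a difference of -0.54 ± 0.12 (limma adjusted p = 0.358). Crebbp was at 4.53 and 4.52 in wild type and at 5.02 and 4.84 in the knockout, higher by 0.41 ± 0.13 (limma adjusted p = 0.426), while its second probe was at -0.04. With knockout array 1 divided by its surface, Ep300 was at -0.66 and Crebbp at 0.29 by its brightest probe. Runx1, which binds DNA together with Ets1, was at -0.33 ± 0.15 (limma adjusted p = 0.490) and at -0.05 by its other probe, and its partner Cbfb was at 0.17 ± 0.18. After the same division Runx1 was at -0.44 by its brightest probe and Cbfb at 0.10. Srf, on which Elk3 and Elk4 depend, was at 0.04 ± 0.12.

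Of 23 reported ETS targets in T cells, 9 were higher and 14 lower, with a median of -0.05. Past an unadjusted limma p of 0.05 were 2, both higher in the knockout, against 11.1% of all genes, 7.04% higher and 4.06% lower. The 2 were Il7r, given above, and Prdm1, which encodes the repressor Blimp-1 and is a reported target of Ets1. Prdm1 was at 0.36 and 0.01 in wild type and at 1.32 and 1.09 in the knockout, higher by 1.02 ± 0.18 (limma adjusted p = 0.319). Il2, the target most tied to Ets1, varied more within genotypes than between them, at -1.88 and -0.41 in wild type and at -0.98 and -2.56 in the knockout. Of the reported targets of the ternary complex factors, the immediate early genes lay below 0 without passing the test. Egr1 was at -0.31 ± 0.13, Ier2 at -0.40 ± 0.19 and Fos at -0.48 ± 0.28 (limma adjusted p from 0.474 to 0.553). Mcl1, Srf and Vcl lay between -0.04 and 0.04 by their brightest probes. Egr1, Ier2, Fos and also Mcl1 were below wild type with no overlap between genotypes. Of the 23 targets, 6 lay below in this way and 5 above, against 22.6% and 25.2% of all genes. The other probe of Vcl was at -0.48.

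**Figure D5:**
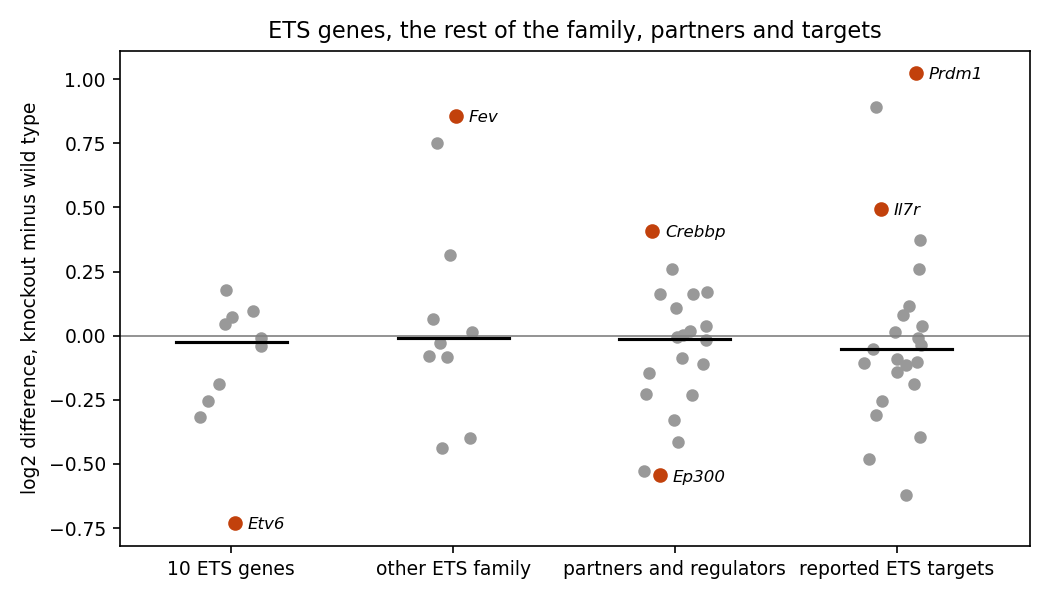
Log2 difference, knockout minus wild type, for the 10 ETS genes, 10 other ETS genes, 20 partners and regulators and 23 reported targets, by the brightest probe of each gene, 2 arrays per genotype. Orange points with names pass an unadjusted limma p of 0.05, none passes after adjustment, and the black bars, the list medians, lie between -0.05 and -0.01.

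The quality of the arrays and the markers of the cells are given here for all of these values. The share of spots called well above background ran from 63.5% to 69.8% over the arrays, and 0 spots were saturated. Knockout array 1 had the least even surface, with an SD of 0.157 against 0.0498 to 0.0557. All 6 markers of the labelled cells given here were above background on every array, with summed signals, in units of the 75th percentile, of 234 to 246 in wild type and 208 to 222 in the knockout. Among them, Il17f, the sorted reporter's own gene, was lower in the knockout, at -2.01 ± 0.18, as was Il17a at -3.17 ± 0.53 (limma adjusted p = 0.301 and adjusted p = 0.319).

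Markers of other cells were detected too. For 4 of the 5 lists the summed signals did not overlap between genotypes, where 47.7% of all single genes did not overlap either. Of 8 markers of CD8, NK and gamma-delta T cells, 6 were above background on every array and Ncr1 on none, with sums of 17.1 to 20.5 in wild type and 13.2 to 16.6 in the knockout. Most of each sum came from Klrd1, at -0.47, while Cd8a at 1.30 and Fcer1g at 0.94 were higher past an unadjusted limma p of 0.05. Cd8a was dim, at -3.89 and -3.73 in wild type and at -2.65 and -2.37 in the knockout. The other tested markers lay below 0 and were not past that threshold, Cd8b1 at -0.13, Klrk1 at -0.13 and Sox13 at -0.08. Of the 6 tested, 2 were thus higher and 4 lower. For B cells, 5 of 7 markers were above background on every array, and the sums were 3.02 to 4.02 in wild type and 4.46 to 4.88 in the knockout. At that threshold Cd79b was higher, at 1.16, and Cd22 at -0.60 and Ebf1 at -0.97 were lower. The Cd22 spot had a surface of 0.39 on knockout array 1, and its difference was 0.07 with the division by the surface. All 7 myeloid markers were above background on every array, at 17.8 to 18.1 in wild type and 19.0 to 19.4 in the knockout. Of 9 markers of neutrophils, mast cells, erythroid cells and platelets, 3 were above background on every array and S100a8, S100a9 and Cpa3 on none, at 11.3 to 20.0 and 11.7 to 13.4. Endothelial cells had 2 of 3 markers above background on every array and Cdh5 on none, at 5.05 to 5.34 and 5.59 to 5.90. Pecam1 was higher at the same threshold, by 0.49, while Kdr was at -0.06 and not past it. The part of these other cells in the values of the ETS genes was not tested.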

How the data were processed

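The authors deposited the output of Agilent Feature Extraction 10.5.1.1 for each array. Per the file headers, its main column is an intensity on a linear scale, with local background taken off and spatial trends removed. The same deposited outputs hold the fitted multiplicative surface of each spot as a ratio, by which bright signals had been divided at 100% of spots on 3 arrays and at 0.801% on knockout array 1. A table of log2 values was deposited too, and how it was made is not given in the sources. Each of its columns differed from the log2 processed signal by 1 constant (within 0.01 for 99.7% to 99.8% of probes), with a median of 5.54 in every column, and it was used as an alternative only.

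Control spots and outlier spots were left out, spots of a probe were averaged with pandas 2.3.3 in Python 3.11.15, and log2 signals were shifted by the 75th percentile of each array. All 26079 probes that both arrays of a genotype called well above background entered 1 fit of genotype by lmFit and eBayes (limma 3.58.1, R 4.3.3), with 2 residual and 2.12 prior degrees of freedom and Benjamini-Hochberg adjustment at 0.05. The procedure was tested on simulated data. Genes were named from the files, and the text names the 10 genes, every probe of each, genes of the lists past an unadjusted p of 0.05 and the chromosome 16 neighbours of Gabpa. Other list genes are named for contrast, after their values were seen. The 10 genes, the lists and the alternatives were chosen with earlier results of these data known. The number of arrays limits the precision. A marker of the labelled cells is not reported here.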

Additional observations from a re-analysis of the deposited data

How the results depend on the processing

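The count of probes past an adjusted p of 0.05 was 0 under every alternative with all 4 arrays. It lay between 0 and 172 with 1 array left out, 42 without wild-type array 1 and 172 without knockout array 2, where a lone array is assumed to vary like the others. Probes at an unadjusted p under 0.05 numbered 2865, 5606 with normexp background correction and 1773 to 3099 with 1 array left out. ETS genes at that threshold numbered 1, Etv6. They numbered 2, Etv6 and Gabpa, with arrays shifted by their medians, in the authors' deposited matrix, with only probes above background on all 4 arrays, with 1 probe per gene in the fit and with an intensity trend. They numbered 2, Fli1 and Gabpa, with knockout array 1 divided by its surface, 3, Etv6, Fli1 and Gabpa, with normexp, and 0 to 1 with 1 array left out. Those whose genotypes did not overlap numbered 5. They numbered 6 with median shifts, in the deposited matrix and with the median over a gene's probes. With quantile scaling they numbered 4, with normexp 3 and with the division by the surface 3. With 1 array left out they numbered 6 to 9. There 1 array is set against 2, which overlap less readily, so these counts cannot be compared with 5. The share of all genes without overlap is not given for the alternatives, so their counts have no background beside them. The ETS median of -0.02 moved to -0.18 with median shifts and in the deposited matrix and to -0.11 with the median over a gene's probes. It lay between -0.10 and -0.050 with 1 array left out. Median shifts and the deposited matrix lowered the median of all tested probes to -0.15, and 24.2% of probes at an unadjusted p under 0.05 were then higher in the knockout, against 63.1%, 49.6% with quantile scaling and 74.2% with normexp. Both turned the sign of Ets1 probe 1 to -0.089, Elf1 probe 2 to -0.12, Elk3 probe 1 to -0.063 and Elk4 probe 1 to -0.12, left Ets1 probe 2 at 0.48, no longer past an unadjusted p of 0.05, and put Gabpa probe 1 at -0.48, past it. Elf1 probe 1 turned to 0.018 with quantile scaling, and Etv6 probe 2 to 0.16 with normexp. The division by the surface turned Elk3 probe 1 to -0.0069 and Elk4 probe 1 to -0.024. The median over probes put Elf1 at 0.014, Elk3 at -0.055 and Elk4 at -0.16. With 1 array left out, the sign turned at Elf1 probe 1 (-0.24 to 0.22), Elf1 probe 2 (-0.16 to 0.24), Elf4 probe 1 (-0.041 to 0.39), Elk3 probe 1 (-0.15 to 0.34), Elk3 probe 2 (-0.23 to 0.12), Elk3 probe 3 (-0.29 to 0.085), Elk4 probe 1 (-0.023 to 0.11), Ets2 (-0.094 to 0.013) and Gabpa probe 2 (-0.29 to 0.11). The sign of Ets1 probe 2, Fli1, Elf2, Elk4 probes 2 and 3, Etv6 probe 1 and Gabpa probe 1 held under all alternatives run. Except where fewer arrays or probes entered, the cause was not tested.

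The labels do not say whether arrays of equal replicate number were paired. The deviations of wild-type and knockout array 1 correlated at r = 0.022 over probes, which cannot decide it with 2 arrays per genotype. With the replicate number as a block, the adjusted count stayed at 0, 2202 probes had an unadjusted p under 0.05, and Ets1 probe 2 no longer passed it while Etv6 probe 1 did.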
